A study of Mus musculus with 7 samples.

Results

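AP-1 transcripts were examined in sorted mouse LSK cells, named for their Lin-Sca1+Kit+ surface, a gate in which marrow stem cells and the earliest progenitors are found. The family was taken as a fixed list of 8 gene symbols, namely Fos, Fosb, Fosl1, Fosl2, Jun, Junb, Jund and Batf, and all 8 were present among the 24421 symbols counted. Members were taken by symbol, with no threshold on a measured value, although earlier results of these data were known when the list was made. LSK cells came from 7 mice, 4 with Ddx41+/+ and 3 with Ddx41+/- donor marrow. Donor marrow of both genotypes carried RosaCreERT2, a tamoxifen-activated Cre recombinase expressed from a ubiquitous locus, and the Ddx41+/- donors carried a floxed Ddx41 allele as well. Lethally irradiated BoyJ recipients were given donor marrow cells, and all recipients, controls included, were injected with 1 mg tamoxifen in 2 rounds of 5 days set 2 days apart. Bone marrow was taken 8 weeks after the transplant, and RNA was made from the sorted cells of each mouse. The labels name no donor marker for this sort, so cells left from the host cannot be told apart from donor cells. The age of the mice is not given in the sources used here.

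AP-1 is a dimer of basic leucine zipper proteins. Jun proteins pair with each other or with Fos proteins, whereas Fos proteins need a Jun partner to bind DNA. Fos, Fosb, Jun and Junb are immediate-early genes, whose transcripts rise within minutes of growth factor, cytokine or stress signals through MAP kinases and are short-lived, while Jund and Fosl2 are commonly transcribed more steadily. Batf is a small zipper protein that pairs with Jun proteins and lacks the activation domains of the Fos proteins.

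The sequence just before the start site is shown for the 4 inducible members Fos, Fosb, Jun and Junb, whose RefSeq and GENCODE start sites lie close together. Jund, which varied with them between mice, is not printed because its start sites lie far apart. In each run the last base is the one before the RefSeq start site (GRCm38.p6), the strand is that of the gene, and capitals mark the motifs searched.
Fos (chr12:85473640-85473889, plus strand): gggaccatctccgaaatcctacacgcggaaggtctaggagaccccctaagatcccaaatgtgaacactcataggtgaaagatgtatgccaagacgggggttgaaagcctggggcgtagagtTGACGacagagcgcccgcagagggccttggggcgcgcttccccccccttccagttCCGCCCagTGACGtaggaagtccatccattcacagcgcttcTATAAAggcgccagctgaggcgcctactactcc
Fosb (chr7:19310046-19310295, minus strand): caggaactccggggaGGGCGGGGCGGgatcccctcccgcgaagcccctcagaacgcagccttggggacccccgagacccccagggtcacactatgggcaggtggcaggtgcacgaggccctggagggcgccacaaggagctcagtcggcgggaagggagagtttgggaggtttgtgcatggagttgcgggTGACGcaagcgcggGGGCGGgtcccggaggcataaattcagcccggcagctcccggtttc
Jun (chr4:95052223-95052472, minus strand): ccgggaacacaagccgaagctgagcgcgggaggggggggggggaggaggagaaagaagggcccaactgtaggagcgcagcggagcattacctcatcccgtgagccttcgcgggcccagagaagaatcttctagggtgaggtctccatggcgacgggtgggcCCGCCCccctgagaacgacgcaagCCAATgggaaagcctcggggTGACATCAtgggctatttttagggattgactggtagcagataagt
Junb (chr8:84978749-84978998, minus strand): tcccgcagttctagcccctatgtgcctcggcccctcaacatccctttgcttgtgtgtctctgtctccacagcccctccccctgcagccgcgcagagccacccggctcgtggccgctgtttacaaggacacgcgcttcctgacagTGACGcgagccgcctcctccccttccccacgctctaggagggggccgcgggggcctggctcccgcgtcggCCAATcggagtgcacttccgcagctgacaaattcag

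Of the 8 members, 7 had a RefSeq window. Motifs were searched on both strands in the 250 bases before the start. They were the CArG box bound by serum response factor, TGACGTCA (the full cAMP response element), TGACG (its first part, added after the windows had been read and contained in TGACGTCA), TGACATCA (an AP-1-like site), TGACTCA (the AP-1 site), GGGCGG (the SP1 box), CCAAT and TATAAA. Fos had TGACG at -129 and at -66 relative to the start site and TATAAA at -33. Fosb had TGACG at -60, and Junb had it at -106. Jun had TGACATCA at -45 and CCAAT at -65. TGACG was present in 17.8%, TGACATCA in 2.93% and TATAAA in 12.4% of the 32851 windows of all genes. Neither the CArG box (1.47% of all windows), TGACGTCA (1.55%) nor TGACTCA (4.46%) was found in the windows of the 7 members, which says only that these letters are not in these 250 bases. GGGCGG was present in Fos, Fosb, Fosl2, Jun and Batf (32.7% of all windows), and CCAAT also in Junb (33.8%). Batf had TGACG at -98, and the Jund window held none of the motifs. The RefSeq and GENCODE start sites were at most 30 bases apart for the 4 genes printed, but 671 bases apart for Fosl2 and 1210 for Jund.

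Total counts per sample were between 32234499 and 43751290. Ddx41, the targeted gene, was at 92.8 to 106.6 CPM (gene counts scaled to library size) in Ddx41+/+ and at 64.4 to 69.5 CPM in Ddx41+/- samples, in keeping with the labels of all 7 samples. Kit was at 427.1 to 505.1 CPM and Cd34 at 646.7 to 830.0 CPM over all samples, and Ly6a, which encodes Sca1, was lower at 13.3 to 30.5 CPM. The alpha and beta globin genes Hba-a1, Hba-a2, Hbb-bs and Hbb-bt had 0 counts in every sample.

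Fos, whose protein is the founding partner of Jun, was at 67.6, 59.9, 97.6 and 190.4 CPM in Ddx41+/+ replicates 1 to 4 and at 158, 342 and 291 CPM in Ddx41+/- replicates 6, 7 and 8. Replicates 1 to 3 of Ddx41+/+ were below every Ddx41+/- sample, whereas replicate 4 was above Ddx41+/- replicate 6, so the genotypes overlapped. The Fos gene lies on chromosome 12, 85473890 to 85477273 in GRCm38. It had a mean of 104 CPM (SD 59.9, n = 4) in Ddx41+/+ samples and a mean of 264 CPM (SD 94.8, n = 3) in Ddx41+/- samples. The log2 fold change was 1.34 (SE 0.52, 95% interval 0.023 to 2.67). The unadjusted p was 0.0474 and the edgeR adjusted p 0.46 after Benjamini-Hochberg (BH) adjustment over 13340 genes tested. The exact permutation test of the CPM values gave p = 0.0857 (two-sided), where the smallest p that 4 against 3 samples allow is 0.0286.

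Fosb, a Fos paralog on chromosome 7 (19302696 to 19310051), had the widest range of the well-detected members. It was at 11.4, 8.54, 14.1 and 59.2 CPM in Ddx41+/+ and at 32.5, 100.3 and 110.1 CPM in Ddx41+/- samples. Replicate 4 of Ddx41+/+ again exceeded Ddx41+/- replicate 6, and the highest sample had 12.9 times the level of the lowest. The log2 fold change of 1.80 (SE 0.87) had a 95% interval from -0.41 to 4.0 and an edgeR adjusted p of 0.558.

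Fosl1 and Fosl2 encode the Fos-related antigens. Fosl1 (chromosome 19, 5447547 to 5455946) was close to the detection limit, with 8, 1, 13 and 11 counts in Ddx41+/+ and 22, 1 and 5 counts in Ddx41+/- samples. These counts are too few for a direction. GENCODE places Ccdc85b, on the opposite strand, over 57.2% of the Fosl1 exon bases. Ccdc85b had a mean of 20.4 CPM (SD 2.83, n = 4) in Ddx41+/+ samples and a mean of 17.0 CPM (SD 3.11, n = 3) in Ddx41+/- samples, so part of the few Fosl1 counts may belong to either gene. Fosl2 (chromosome 5, 32135801 to 32157842) was even between mice, at 23.8, 22.6, 27.8 and 24.4 CPM in Ddx41+/+ and 24.6, 24.4 and 20.9 CPM in Ddx41+/- samples. Its log2 fold change was -0.08 (SE 0.11, edgeR adjusted p = 0.839), and the 95% interval corresponded to 0.809 to 1.10 times the Ddx41+/+ level.

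Jun, the central partner of the family, was the member with the highest CPM on average. It lies on chromosome 4, 95049034 to 95052222. It was at 83.3, 80.1, 135 and 209 CPM in Ddx41+/+ and at 178, 315 and 313 CPM in Ddx41+/- samples. The 7 samples stood in the same order as for Fos, with Ddx41+/+ replicate 4 between Ddx41+/- replicates 6 and 8. The log2 fold change was 1.08 (SE 0.44, 95% interval -0.02 to 2.19, edgeR adjusted p = 0.481).

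Junb and Jund are the other Jun proteins, of which Junb is known to restrain the cell cycle and myeloid expansion. Junb (chromosome 8, 84974484 to 84978718) was at 47.1, 39.5, 45.5 and 59.7 CPM in Ddx41+/+ and at 49.0, 60.2 and 56.1 CPM in Ddx41+/- samples. Here Ddx41+/+ replicate 4 was second only to Ddx41+/- replicate 7. The log2 fold change was 0.20 (SE 0.12, 95% interval -0.06 to 0.46, edgeR adjusted p = 0.587). Jund (chromosome 8, 70698949 to 70700616) was at 36.0, 30.6, 40.1 and 69.5 CPM in Ddx41+/+ and at 52.7, 66.7 and 78.0 CPM in Ddx41+/- samples. Replicate 4 of Ddx41+/+ was above Ddx41+/- replicates 6 and 7. Jund had a log2 fold change of 0.58 (SE 0.32, 95% interval -0.23 to 1.39, edgeR adjusted p = 0.602). An antisense gene, Gm11175, covers 52.6% of the Jund exon bases and has no count of its own here, and Prdx2 covers 7.52% of those of Junb from the opposite strand.

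Batf (chromosome 12, 85686669 to 85709087) was the steadiest member. It was at 23.9, 24.0, 24.9 and 22.0 CPM in Ddx41+/+ and at 22.4, 22.9 and 19.4 CPM in Ddx41+/- samples. Its highest sample had 1.28 times the level of the lowest. The log2 fold change was -0.14 (SE 0.10, edgeR adjusted p = 0.682), with a 95% interval of 0.783 to 1.06 times the Ddx41+/+ level.

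**Figure D1:**
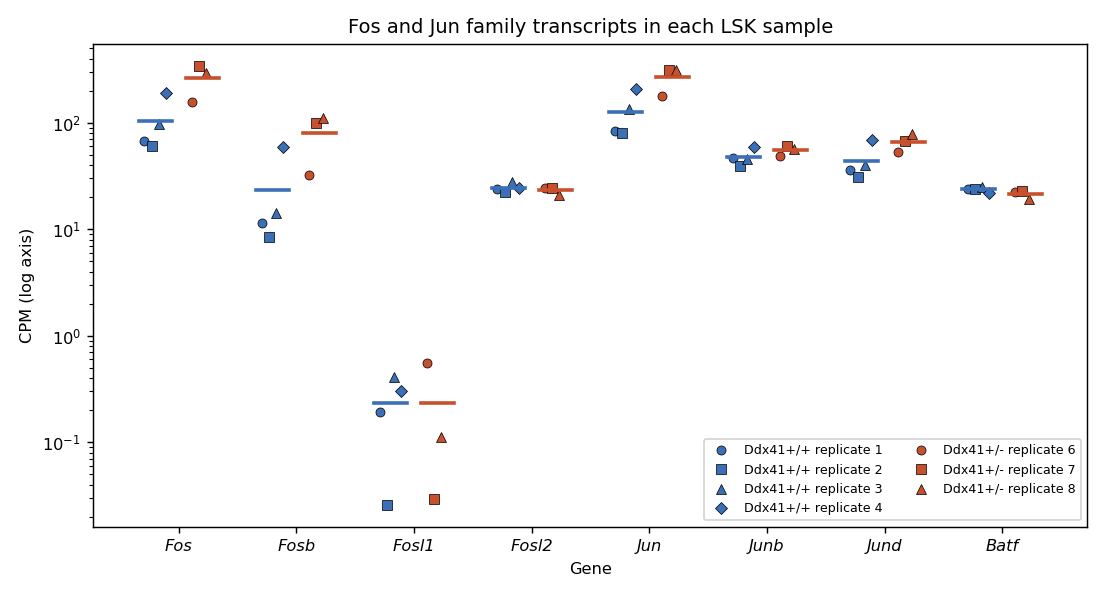
CPM (log axis) of each member in each LSK sample, with Ddx41+/+ in blue, Ddx41+/- in red and a bar at the group mean. Ddx41+/+ replicate 4 (blue diamond) lies among the Ddx41+/- samples for Fos, Fosb, Jun, Junb and Jund, while Fosl2 and Batf stay between 19.4 and 27.8 CPM in all 7 samples.

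Of the 8 members, all of which passed the filter on low counts, 0 had an edgeR BH-adjusted p under 0.05, and 0.217% of all genes tested did. DESeq2 and limma-voom also called 0 members. At an unadjusted p under 0.05, 1 member was higher in Ddx41+/- (Fos) and 0 were lower, where 5.7% of all genes were higher and 4.93% lower. The CPM values of the genotypes overlapped in all 8 members, while 10.1% of all genes tested had no overlap (4.85% higher and 5.21% lower in Ddx41+/-). The median log2 fold change of the members was 0.39, and that of all genes -0.0048. In bulk samples, fewer cells that express a gene and less of its RNA per cell cannot be told apart.

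For Fos, Fosb and Jun the overlap was between Ddx41+/+ replicate 4 and Ddx41+/- replicate 6. For Junb and Jund, Ddx41+/+ replicate 4 was also above another Ddx41+/- sample. Without Ddx41+/- replicate 6 the log2 fold changes were 1.61 for Fos, 2.18 for Fosb and 1.31 for Jun. Which of these samples is the unusual one was not tested. Without Ddx41+/+ replicate 4 the ratio of the mean CPM, Ddx41+/- over Ddx41+/+, went from 2.54 to 3.51 for Fos, from 3.47 to 7.14 for Fosb, from 2.12 to 2.70 for Jun, from 1.49 to 1.85 for Jund and from 1.15 to 1.25 for Junb. Of the members, Jund then passed, at a log2 fold change of 0.89 (SE 0.14, edgeR adjusted p = 0.026), in a fit in which 0.181% of 13231 genes passed. Fos (edgeR adjusted p = 0.322), Fosb (0.329), Jun (0.368) and Junb (0.301) did not. Leaving out this sample was a choice among 7 such fits, the other 6 of which called 0 members. In all 14 alternative fits, log2 fold changes kept their sign in all members but Fosl1, and ranged from 1.11 to 1.81 for Fos, from 0.92 to 1.44 for Jun and from 1.51 to 2.84 for Fosb.

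**Figure D2:**
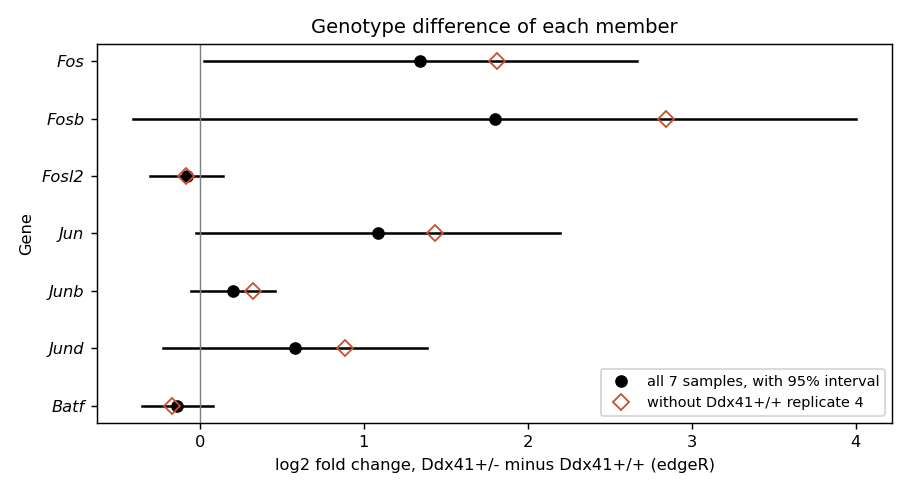
Log2 fold change, Ddx41+/- minus Ddx41+/+, of 7 members (horizontal axis) from edgeR. Filled points with bars are all 7 samples with the 95% interval, open diamonds are without Ddx41+/+ replicate 4. The intervals are wide for Fosb, Fos and Jun and narrow for Junb, Fosl2 and Batf, and only that of Fos leaves out 0. Fosl1 is not drawn because of its low counts.

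The members differed widely in their spread between mice of the same genotype. Over the 9106 genes with a mean of at least 10 CPM, the median within-genotype SD of log2 CPM was 0.11. For Fosb it was 1.14, rank 6 from the largest, for Fos 0.69 (rank 9), for Jun 0.59 (rank 12) and for Jund 0.44 (rank 39). Junb followed at 0.21, larger than 91.3% of these genes, whereas Fosl2 (0.13, larger than 62.3%) and Batf (0.0998, larger than 41.9%) were ordinary. Mean levels over all samples were 48.0 CPM for Fosb and 51.0 CPM for Junb, and 24.1 CPM for Fosl2 and 22.8 CPM for Batf.

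**Figure D3:**
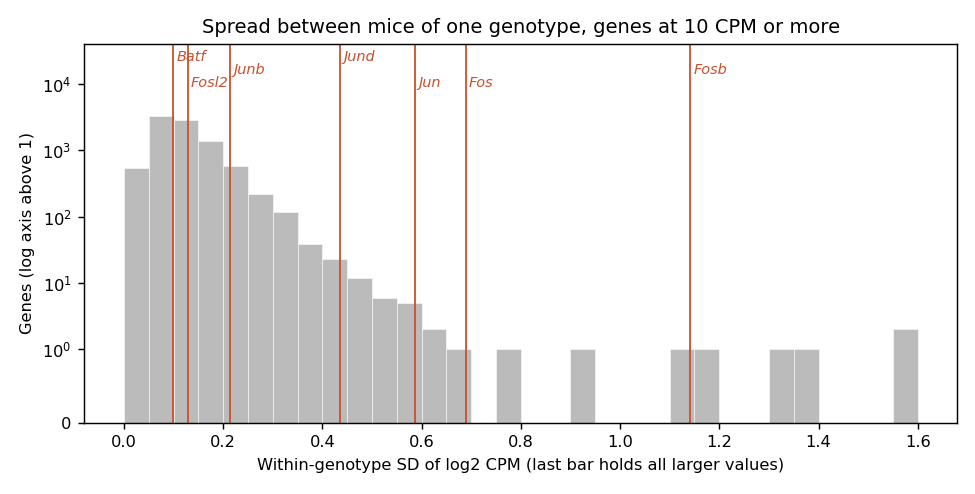
Number of genes (vertical axis, logarithmic above 1) by within-genotype SD of log2 CPM, for the 9106 genes with a mean of at least 10 CPM. Red lines mark 7 members. Fosb (1.14), Fos (0.69), Jun (0.59) and Jund (0.44) lie in the far tail, while Batf and Fosl2 lie in the body of the distribution.

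The variable members moved together. Fos and Jun had the same order over the 7 samples (Pearson's r = 0.993, exact permutation p = 0.000198, the smallest that the orderings of 7 samples can give, and Spearman's rho = 1, exact permutation p = 0.000397). Without the 2 samples farthest from the median of Fos, r was 0.991. Among Fos, Fosb, Jun, Junb and Jund, the 10 pairs had r from 0.874 to 0.993 and rho from 0.821 to 1. After BH adjustment over the 21 pairs of 7 members, exact permutation p-values were at most 0.0317 for r and at most 0.0652 for rho. With the mean of each genotype subtracted first, r was still between 0.874 and 0.985 in these pairs, given as a description. Without the 2 samples farthest from the median of the first gene of each pair, r in the 10 pairs was between 0.826 and 0.991. Fosl2 and Fos had r = -0.21 (exact permutation p = 0.666, rho = 0.0714, exact permutation p = 0.906), and the 5 pairs of Fosl2 with the variable members had BH-adjusted exact permutation p-values of at least 0.637. Without the 2 samples farthest from the median of Fos, r of Fosl2 and Fos was -0.76. Leaving out those farthest from the median of Fosb gave -0.34 for Fosl2 and Fosb. For Jun, Junb and Jund the samples left out were those farthest from the median of Fosl2, and r was 0.79, 0.83 and 0.86. These values rest on different samples, so they do not compare the partners. Batf had negative r with the 5 variable members within its narrow range, and 2 of the 5 pairs (with Jund and Fosb) passed after BH adjustment. Here r went from -0.8 with Jund (exact permutation p = 0.0173, BH-adjusted 0.033, rho = -0.857, exact permutation p = 0.0238, BH-adjusted 0.05) to -0.6 with Junb (exact permutation p = 0.152). Without the 2 samples farthest from the median of Jund, r of Jund and Batf was -0.816. With genotype means subtracted, r of Batf with the 5 members was weaker, between -0.66 and -0.43.

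**Figure D4:**
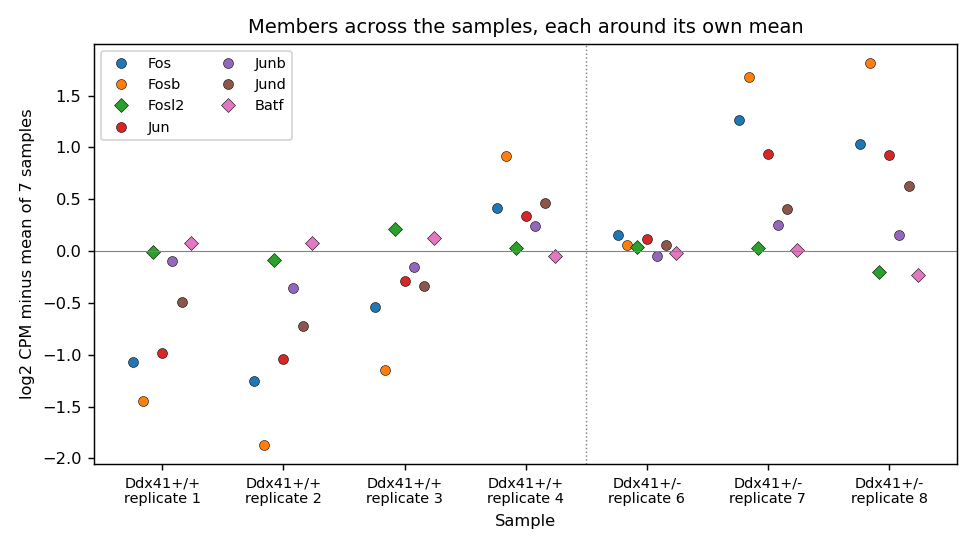
Log2 CPM of 7 members minus the gene's own mean over the 7 samples (vertical axis), by sample. Circles (Fos, Fosb, Jun, Junb, Jund) are low in Ddx41+/+ replicates 1 to 3 and high in Ddx41+/+ replicate 4 and Ddx41+/- replicates 7 and 8, and diamonds (Fosl2, Batf) stay near 0.

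The 3 genes closest to each member were sought among those with a mean of at least 10 CPM, by Pearson's r of log2 CPM over the 7 samples. These genes were picked for a high r, so r is only a description. Closest to Fos were Zfp36 (r = 0.998), a destabiliser of AU-rich mRNA, then Jun and the spectrin gene Sptb (0.987). Zfp36 (0.993), the cytokine gene Osm (0.993) and the linker histone gene Hist1h1c (0.992) were closest to Fosb. For Jun these were Fos, Sptb (0.993) and Hist1h1c (0.989), and for Jund they were Hist1h1c (0.985), Fosb (0.981) and Osm (0.977). Junb stood nearest to Mfn2 (0.990), Pxk (0.987) and Ints4 (0.961). The steady members had other neighbours, with Dnajc30 (0.983), Sys1 (0.969) and Psen2 (0.968) for Fosl2 and Nudcd3 (0.978), Arl3 (0.977) and 2410131K14Rik (0.968) for Batf. Fosl1, at its few counts, was nearest to Msh3 (0.946), Atg4b (0.944) and Msl1 (0.938).

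To compare levels between genes, CPM was divided by the exon length in kilobases. Mean levels over the 7 samples ran from Fos (73.3 CPM per kb) through Jun (58.8), Jund (32), Junb (22.2), Batf (16.2), Fosb (7.69) and Fosl2 (2.49) to Fosl1 (0.115 CPM per kb). Fos was above Jun in 6 of the 7 samples, Batf above Fosb in 6 and Fosb above Fosl2 in 4, so these neighbours were not separated beyond the spread between mice. The remaining neighbours kept their order in 7 of 7 samples. Part of this order rests on exon length. By coding length Fos was above Jun in 0, Jund above Junb in 4 and Junb above Batf in 1 of the 7 samples. Per kb of exon, Batf was above Fosb in each Ddx41+/+ sample, and Fosb was at 17.6 against 13.8 for Batf in Ddx41+/- replicate 8. This order too rests on length, since Batf was above Fosb in 5 of 7 samples by coding length and in 3 of 7 without division by length.

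The composition of the family shifted along with its level. Fos made up 24.3%, 23.8%, 27.6% and 33.5% of the summed level per kb in Ddx41+/+ and 33.6%, 42.1% and 37.9% in Ddx41+/- samples. Batf made up 14.4%, 15.9%, 11.7% and 6.48% in Ddx41+/+ and 7.96%, 4.73% and 4.23% in Ddx41+/- samples, although its own CPM hardly differed. The share of Jun stayed between 22.1% and 30.0%. The summed level of the 4 Fos genes was 0.486, 0.481, 0.544 and 0.700 times that of the 3 Jun genes in Ddx41+/+ and 0.692, 0.994 and 0.850 times in Ddx41+/- samples. The ratio was thus lowest in Ddx41+/+ replicates 1 to 3, and replicate 4 slightly exceeded Ddx41+/- replicate 6. Fosb counts per Fos count were 0.169, 0.143, 0.144 and 0.311 in Ddx41+/+ and 0.206, 0.294 and 0.378 in Ddx41+/- samples. This ratio did not follow the level in full, since Ddx41+/- replicate 7, with the highest Fos, was below Ddx41+/+ replicate 4.

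**Figure D5:**
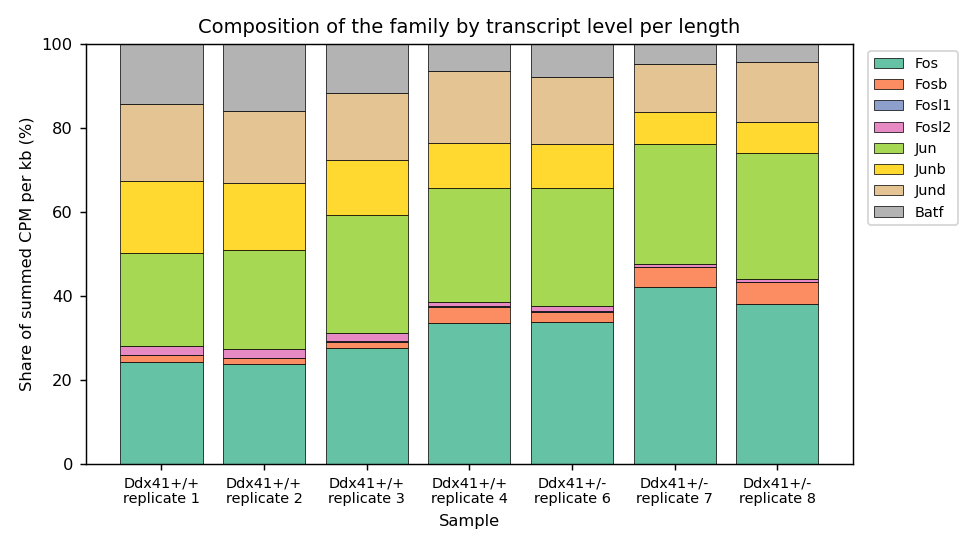
Share of each member in the summed level (CPM per kb of exon) of the 8 genes, in percent, by sample. Fos and Fosb take a larger share in Ddx41+/+ replicate 4 and the Ddx41+/- samples, and Junb and Batf a smaller share, than in Ddx41+/+ replicates 1 to 3, while Jun stays between 22.1% and 30.0%.

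The pathway around AP-1 was read from 8 lists in the same fit. Counts in these and in the cell marker lists stand beside the shares over all genes tested. There, 0.217% passed by edgeR, and at an unadjusted p under 0.05 5.7% were higher and 4.93% lower. Among upstream genes, the MAP kinase and serum response factor list had 35 of 36 genes tested. Of these, 0 passed by edgeR and limma-voom and 1 by DESeq2 (Creb1, a factor that binds the cAMP response element). At an unadjusted p under 0.05, 4 were higher and 1 lower. Creb1 had a mean of 98.1 CPM (SD 4.09, n = 4) in Ddx41+/+ samples and a mean of 119 CPM (SD 7.27, n = 3) in Ddx41+/- samples, with an edgeR adjusted p of 0.108. Map3k1, a kinase upstream of the Jun N-terminal kinases (log2 fold change 0.20, edgeR adjusted p = 0.314), and Mapk13, a p38 kinase (0.58, edgeR adjusted p = 0.412), came next. The median log2 fold change of the list was 0.018.

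The MAP kinase phosphatases, which switch off the kinases that induce Fos, had 10 genes tested, of which 0 passed by edgeR, DESeq2 or limma-voom. At an unadjusted p under 0.05, 2 were higher (Dusp8 and Dusp1) and 1 lower (Dusp2). Dusp1, itself an early response gene, had a mean of 33.0 CPM (SD 15.5, n = 4) in Ddx41+/+ samples and a mean of 69.8 CPM (SD 16.7, n = 3) in Ddx41+/- samples (edgeR adjusted p = 0.423). Like Jund it passed without Ddx41+/+ replicate 4 (edgeR adjusted p = 0.0158). Dusp2 had a log2 fold change of -0.45 (SE 0.14, edgeR adjusted p = 0.3), and Dusp8 had at most 34 counts in any sample.

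Of the genes for proteins that bind AU-rich mRNAs such as Fos or take part in mRNA decay, all 11 were tested. None passed by edgeR, DESeq2 or limma-voom (count 0), with 1 higher and 1 lower at an unadjusted p under 0.05. Zfp36 had a mean of 117 CPM (SD 30.1, n = 4) in Ddx41+/+ samples and a mean of 181 CPM (SD 29.3, n = 3) in Ddx41+/- samples (edgeR adjusted p = 0.377, and 0.0166 without Ddx41+/+ replicate 4). Its relative Zfp36l2 had a log2 fold change of -0.27 (SE 0.10, edgeR adjusted p = 0.366), and that of Cnot1, the scaffold of the deadenylase, was 0.10 (0.627). The 11 genes of Fos and Jun protein turnover had 0 calls by edgeR, DESeq2 or limma-voom and 0 at an unadjusted p under 0.05. Det1 and Cul4a, parts of ubiquitin ligases, had edgeR adjusted p-values of 0.549 and 0.565.

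The other zipper proteins and coactivators that work with Fos and Jun had 18 of 20 genes tested. None passed by edgeR, DESeq2 or limma-voom (count 0), and by unadjusted p (under 0.05) 0 were higher and 1 lower, the latter being Nfe2, a factor of megakaryocytes and erythroid cells (log2 fold change -0.15, SE 0.070, edgeR adjusted p = 0.445). Maff, a small Maf protein (-0.62, edgeR adjusted p = 0.587), and Atf2, a Jun partner (0.13, edgeR adjusted p = 0.599), were the next by p. The median log2 fold change was 0.019.

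The other immediate-early genes had 29 of 32 tested, and 1 passed, Rhob, a small GTPase gene. Rhob averaged 91.2 CPM (SD 10.4, n = 4) in Ddx41+/+ samples and rose to 125 CPM (SD 8.01, n = 3) in Ddx41+/- samples. Its log2 fold change was 0.46 (SE 0.083), at an edgeR adjusted p of 0.0339. That call was lost with library totals only, with a non-robust dispersion, and without Ddx41+/+ replicate 2 or 3 or Ddx41+/- replicate 7 or 8. At an unadjusted p under 0.05, 7 were higher and 0 lower, and the median log2 fold change was 0.21. Within Ddx41+/+, replicate 4 had the top level of 16 of the 29 genes and of 5 of the 8 family members. The count was 6 of 11 in the AU-rich list and 10 of 20 among the AP-1 targets. It was 3 of 10 for the phosphatases, 6 of 18 for the partners and 9 of 35 for the MAP kinase list. Protein turnover had 2 of 11 and heat shock 1 of 13. The share over all genes tested was not counted, so whether any of these counts is unusual cannot be said. Among the genes often given as AP-1 targets, 20 of 25 were tested and 1 passed, Mmp9, a matrix metalloproteinase gene that mature neutrophils also express. Mmp9 was at 4.50 to 7.90 CPM in Ddx41+/+ and at 12.4 to 20.7 CPM in Ddx41+/- samples (edgeR adjusted p = 0.00677). It was at 5.33 CPM in Ddx41+/+ replicate 4, within the range of the other Ddx41+/+ samples. At an unadjusted p under 0.05, 3 targets were higher and 0 lower, with a median log2 fold change of 0.092.

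Of 14 heat-shock genes, 13 were tested and 0 passed by edgeR, with 4 higher and 0 lower at an unadjusted p under 0.05. Hspa5, an endoplasmic reticulum chaperone gene, was nearest (log2 fold change 0.37, SE 0.072, edgeR adjusted p = 0.0503) and passed by DESeq2 and limma-voom. Hsph1 and Hspa8, cytosolic chaperone genes, had edgeR adjusted p-values of 0.318 and 0.336. The summed level of the list was 4479 to 4888 CPM in Ddx41+/+ and 4904 to 5574 CPM in Ddx41+/- samples. In Ddx41+/+ replicate 4, where the AP-1 genes were high, the sum was 4482 CPM, near the low end. Abundant genes make up most of the sum, with Hspa8 alone at a mean of 1783 CPM in Ddx41+/+. It therefore says little of Hspa1a and Hspa1b. Hspa1a was at 0.193 to 19.2 CPM in Ddx41+/+ and 7.77 to 37.9 CPM in Ddx41+/- samples (edgeR adjusted p = 0.742). Hspa1b was at 0.677 to 21.9 and 14.8 to 58.8 CPM (edgeR adjusted p = 0.632). In Ddx41+/+ replicate 4 they were at 0.553 and 0.801 CPM.

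Markers of other cells were read beside these values. The 11 mature neutrophil genes counted summed to 1019 to 1505 CPM in Ddx41+/+ and 1642 to 2551 CPM in Ddx41+/- samples, with 9 of 11 higher at an unadjusted p under 0.05 and 0 passing after adjustment. The sum was highest in Ddx41+/- replicate 6, which had the lowest Fos, Fosb, Jun and Jund of the Ddx41+/- samples, and it was 1364 CPM in Ddx41+/+ replicate 4. The 12 LSK markers summed to 1926 to 2113 CPM in Ddx41+/+ and 1751 to 1897 CPM in Ddx41+/- samples, and replicate 4 was the lowest of Ddx41+/+. Of these 12 genes, 8 were lower at an unadjusted p under 0.05 and 1 passed (Gata2, edgeR adjusted p = 0.0471). The 9 B lineage genes summed to 44.4 to 65.8 CPM in Ddx41+/+ and 59.6 to 83.6 CPM in Ddx41+/-, the 10 macrophage genes to 209 to 240.3 and 210.3 to 288 CPM, and the 10 stroma and endothelium genes to 152 to 179 and 170.2 to 184 CPM. Pecam1 alone had a mean of 147 CPM in each genotype. The rest of the stroma and endothelium list was mixed. Of its 9 genes tested, 5 had a log2 fold change above 0. At an unadjusted p under 0.05, 0 were higher and 1 lower, Cdh5, which was under 1 CPM in every sample. Col1a1 was at 0.822 to 2.20 CPM in Ddx41+/+ and 1.47 to 14.9 CPM in Ddx41+/- samples (edgeR adjusted p = 0.564). The 8 late erythroid genes counted summed to 28.0 to 50.9 CPM and 39.9 to 63.7 CPM, with all 4 globin genes at 0. The 9 T and NK genes counted summed to 224 to 277 CPM and 256 to 284 CPM, nearly all of it Nkg7, and 6 of them, Cd3d, Cd3e and Cd3g included, were under 1 CPM in every sample. The part of these cells in the AP-1 differences was not tested. The share of the ribosomal RNA precursor Rn45s was 0.876% in Ddx41+/+ replicate 4 and between 0.623% and 2.92% in the other samples.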

How the data were processed

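RNA-seq was performed on sorted LSK cells of 7 mice, grouped by the genotype in the labels. The values deposited by the authors are unnormalized read counts, 1 row per gene symbol. The submitters' processing notes name FastQC 0.11.7, HISAT2 2.0.5, featureCounts 1.5.2 and mm10 without their roles. The labels give a stranded TruSeq mRNA kit and the methods another TruSeq kit, and the strand setting and the counting of reads or pairs are not given in the sources used here, so counts of overlapping antisense genes are uncertain. A Ddx41+/- library numbered 5 had been removed, per the name given to the counts, and was not analysed here. Unused columns of sample values numbered 0.

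Counts were tested with edgeR 4.0.16 in R 4.3.3 (quasi-likelihood, robust, TMM scaling, filterByExpr), which left 13340 of 24421 genes (54.6%). P-values were BH-adjusted over these genes, with a threshold of 0.05. The biological coefficient of variation was 12.9%. Standard errors came from the log2 fold change and the F statistic, as their quotient after taking the root of F. Intervals are 95%. On simulated counts for this comparison (13185 genes in that step), 80% of 1.5-fold and 100% of 2-fold changes were recovered, with 9 false calls. These counts had the same dispersion for all genes, so the recovery does not apply to genes as variable as Fos, Fosb and Jun. CPM used TMM-scaled library sizes, and log2 CPM a prior count of 2. Single values were compared by exact permutation over 35 splits. Alternatives used DESeq2 1.42.0, limma 3.58.1, other scalings and filters, and each sample left out. Within-genotype SD was pooled over both genotypes. Lengths and positions came from GENCODE M21 (GRCm38, the same assembly as mm10) and promoter sequences from RefSeq.

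Named genes were the 8 members, Ddx41, in each pathway list the genes that passed or else the 3 with the smallest p, and the 3 genes most like each member. Genes outside this rule were named after their values were seen. A gene that the rule names is not reported here. Members and lists were chosen with earlier results of these data known, and the lists were written from general knowledge. Nothing in the labels says that samples share a litter or batch. The edgeR p-values set the genotype difference against the spread between these mice, estimated with the help of all genes tested.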

Additional observations from a re-analysis of the deposited data

Results flagged for a closer look

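In the 4 Ddx41+/+ samples, the distance of the most extreme sample from the rest was checked with Dixon's ratio for 29 genes, of which chance would mark about 1 in 20 (1.45 genes). The 3 Ddx41+/- samples are too few for this check. It marked 2 genes, both high in Ddx41+/+ replicate 4. Fosb was at 59.2 CPM there, against 8.54 to 14.1 CPM in the other Ddx41+/+ samples (ratio 0.890). Dusp1 was at 56.1 CPM, against 22.6 to 27.3 CPM (ratio 0.861). Both values lie inside the range of the Ddx41+/- samples, which is 32.5 to 110.1 CPM for Fosb and 50.8 to 82.0 CPM for Dusp1.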

How the results depend on the processing

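No paired analysis was possible because the replicate numbers of the genotypes, 1 to 4 and 6 to 8, do not overlap. The number of members that passed was 0 in all fits but the one without Ddx41+/+ replicate 4, and ranged from 0 to 1 when each sample was left out in turn. The cause of that change was not tested. Over the same 7 fits, log2 fold changes ranged from 1.11 to 1.81 for Fos, 1.51 to 2.84 for Fosb, 0.92 to 1.44 for Jun, 0.44 to 0.89 for Jund, 0.12 to 0.32 for Junb, -0.12 to -0.008 for Fosl2 and -0.18 to -0.065 for Batf. Fosl1, at 1 to 22 counts, went from -1.59 to 0.53 and failed the filter without Ddx41+/+ replicate 3 or 4. The number of genes that passed (29) was 15 with library totals only, 91 without an expression filter, 152 with DESeq2, 14 with a non-robust dispersion, 74 at an adjusted p under 0.1, and 7 to 41 with samples left out (7 without Ddx41+/+ replicate 2, 16 without replicate 3, and 14 and 9 without Ddx41+/- replicates 7 and 8). The immediate-early list had 0 calls with library totals only, 0 with a non-robust dispersion, 2 with DESeq2 and 0 to 2 with samples left out. DESeq2 gave 1 call in the MAP kinase and SRF list. The heat-shock list had 1 call (Hspa5) without a filter, with DESeq2, with limma-voom and at an adjusted p under 0.1, and 0 to 1 with samples left out, as had the phosphatase and AU-rich lists. The other lists were within 1.5 times of their counts in all settings.

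Shares depended on the length used. With coding length, the mean share was 24.3% for Fos (31.8% by exon length), 6.83% for Fosb (2.99%), 5.14% for Fosl2 (1.41%), 31.5% for Jun (26.8%) and 9.49% for Jund (15.8%). Without division by length it was 7.08% for Fosb, 5.34% for Fosl2, 32.8% for Jun and 10.2% for Jund. Batf was at 9.35% by exon length, 12.9% by coding length and 5.15% undivided. Of the 24 pairs of a member and a gene most like it (19 distinct genes), 10 were also among the closest by rank.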

Other observations

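The genes that varied most between mice of the same genotype were looked at after their values were seen. Among the 9106 genes with a mean of at least 10 CPM, the within-genotype SD of log2 CPM was largest for the heat-shock genes Hspa1a (2.24) and Hspa1b (1.88), near-identical copies whose reads cannot be assigned with certainty, followed by the immunoglobulin chain gene Jchain (1.39). Of the 18 genes of the immediate-early list at this level, 16 were above the median SD of all genes, but the median of the 18 was 0.20 and 2 ranked above Jund, Egr1 at 0.63 (rank 10) and Nr4a1 at 0.44 (rank 37). The phosphatase gene Dusp1 was at 0.51 (rank 20). The ribosomal RNA precursor Rn45s (0.91) ranked 7.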
